A study of Mus musculus with 12 samples.

Results

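The BCL2 family was examined by 10 of its genes, taken by gene symbol from the 18926 genes that every deposited table lists. The pro-survival members were Bcl2, Bcl2l1 (BCL-XL) and Mcl1, the effectors were Bax and Bak1, and the BH3-only members were Bid, Bad, Bbc3 (PUMA), Bcl2l11 (BIM) and Pmaip1 (NOXA). All 10 were among the 18053 genes that passed the filter on low counts. RNA was sequenced from tumorspheres of S1, a mouse gastric cancer cell line from a tumour with engineered Cdh1, Trp53 and Smad4 alleles, in 3 libraries each of control, Nf2-KO, Rasa1-KO and Rasa1/Nf2 double-KO cells. All groups expressed Cas9 and received a lentiviral guide RNA, which in the controls had no target. The knockouts were selected by antibiotic, and no isolation of clones is described. The sample labels call the cells monolayer, whereas their culture text describes sphere medium on low-attachment plates. The labels do not say whether the libraries of a group came from separate cultures, and the study's own legend for these RNA profiles calls them technical replicates. The p-values therefore measure the spread between libraries, which may hold no variation between cultures.

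BCL2 family proteins decide whether the outer membrane of mitochondria stays intact. Pro-survival members hold BAX and BAK in check, BH3-only proteins bind the pro-survival members or activate the effectors directly, and BAX and BAK form the pores that release cytochrome c. Epithelial tumour cells detached from a matrix depend on this balance, since loss of attachment can itself start apoptosis. Several members are controlled mainly at the protein level, and BCL-XL, MCL1 and BIM exist in splice forms, which counts per gene do not separate.

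The targeted genes went against the labels in 2 groups. Nf2 was at 55.4 to 61 CPM (library-size-scaled counts, with TMM factors) in control, 13.2 to 14.3 in Nf2-KO, 11.6 to 12.1 in the libraries labelled Rasa1-KO and 56.4 to 62.6 in those labelled double-KO. Rasa1 was at 60.5 to 78.5 CPM in control, 97.2 to 101 in Nf2-KO, 30.4 to 34.5 in the libraries labelled Rasa1-KO and 17.7 to 23.3 in those labelled double-KO. The deposited tables of these 2 groups also carry each other's names, so the groups are called labelled Rasa1-KO and labelled double-KO throughout, and combined effects are given with the labels as they stand and exchanged. Libraries held 43818139 to 96674463 counts. The unnumbered control and labelled double-KO 1 stood apart from their groups, and results are given with and without them. Among epithelial genes Krt8 was at 1560 to 2180 TPM (a level scaled by transcript length). Epcam was at 36 to 56.6 TPM in control and 6.08 to 7.28 in Nf2-KO. It was at 11 to 12.5 TPM in labelled Rasa1-KO and 12.1 to 28.7 in labelled double-KO. Cdh1 was lower in Nf2-KO and labelled Rasa1-KO (log2 fold changes of -2.09 and -1.57). Krt8, Krt18 and Krt19 were higher in labelled Rasa1-KO (0.64, 0.83 and 0.7). Endothelial markers summed to 0.186 to 0.727 TPM and the 2 leukocyte markers measured to 5.32 to 20.2 TPM, nearly all of it Cd68, with Ptprc at 0.0212 to 0.171. Cd68 was higher in Nf2-KO (1.02, adjusted p = 0.0091) and in labelled Rasa1-KO (1.58, adjusted p = 0.00072) on the log2 scale. The 4 fibroblast genes measured summed to 20.6 to 88.5 TPM in control, 140 to 177 in Nf2-KO, 38.3 to 49 in labelled Rasa1-KO and 9.41 to 13.9 in labelled double-KO. Within this sum Col1a1, Col1a2 and Pdgfrb rose in Nf2-KO (log2 fold changes of 5, 9.47 and 2.94) and in labelled Rasa1-KO (2.66, 7.27 and 1.73), while Dcn fell in all 3 groups (-0.72, -1.13 and -2.14). The part of these marker changes in the results below was not tested. Of the measured markers, 2 of 6 epithelial, 4 of 4 fibroblast, 2 of 2 endothelial and 1 of 2 leukocyte genes were called in Nf2-KO. In the same order 5, 4, 2 and 1 were called in labelled Rasa1-KO, and 2, 1, 0 and 0 in labelled double-KO. In labelled double-KO 1 endothelial and 1 leukocyte gene had a raw p under 0.05. The epithelial genes called were 2 lower in Nf2-KO, 3 higher and 2 lower in labelled Rasa1-KO, and 1 of each in labelled double-KO. Over all genes, 20.6% were higher and 22.2% lower in Nf2-KO, and 19.7% and 22.2% in labelled Rasa1-KO. In labelled double-KO 4% of all genes were higher and 2.46% lower.

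Mcl1, whose short-lived product neutralises NOXA and BIM, was the highest of the 10 genes in TPM, on which levels of different genes can be compared. Its median was 79.4 TPM over the 12 libraries, with a range from 55.6 to 138, and its mean level was at the 95th percentile of all genes. Bax followed with a median of 34.5, then Bad with 32.5 and Pmaip1 with 29 TPM. Bak1 had a median of 20.8, Bid of 18.7 and Bcl2l1 of 18.6 TPM. Bcl2l11 with 8.45, Bbc3 with 6.85 and Bcl2 with 4.47 TPM were the lowest. Thus the gene that names the family was the least abundant of the 3 pro-survival members in every library. Counts behind single values ran from 257 for Bbc3 to 25258 for Mcl1.

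**Figure D1:**
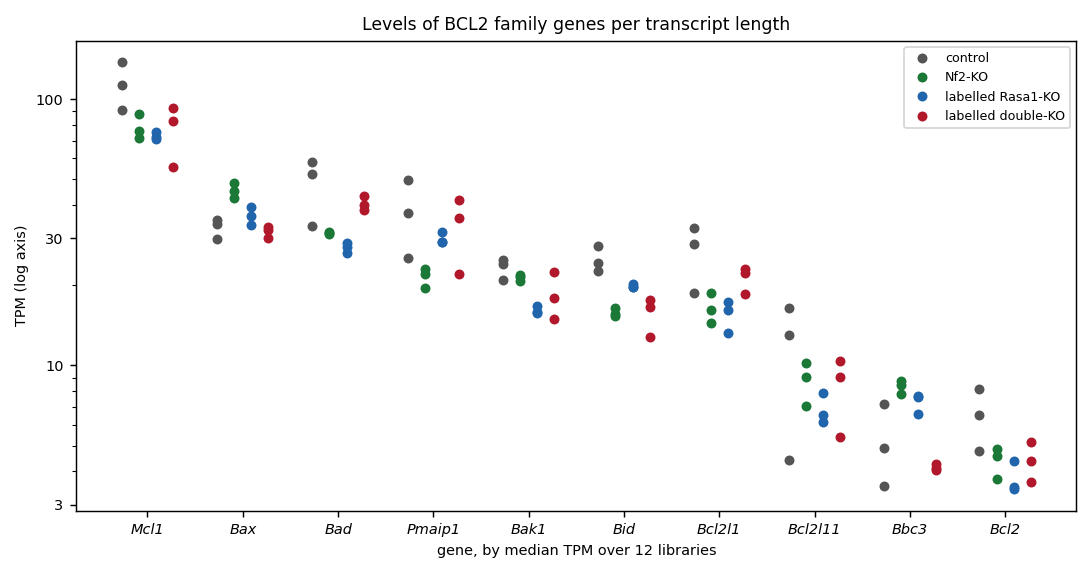
TPM of the 10 BCL2 family genes (log axis) in each of the 12 libraries, coloured by group, with genes ordered by their median. Mcl1, at 55.6 to 138 TPM, lies above the other genes, and Bcl2, Bbc3 and Bcl2l11 lie lowest.

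The promoters of 4 genes, chosen after their values were seen, are shown because the genes moved in the comparisons below and their windows hold letters of motifs of interest here, such as that of the TEAD factors, through which YAP acts downstream of NF2. Windows are the 250 bases before a RefSeq start site, from RefSeq on GRCm38.p6 in the direction of the transcript, and 15 windows were found for 9 members, with none for Pmaip1. The 4 windows below overlap no exon of the GENCODE basic annotation. Capitals mark the motif, GGAATG (TEAD) in Bcl2l1 and, on the opposite strand, in Mcl1, CACGTG (E-box) in Bax and TGTTTAC (FOXO) in Bbc3.
Bcl2l1, chr2:152831729-152831978, minus strand: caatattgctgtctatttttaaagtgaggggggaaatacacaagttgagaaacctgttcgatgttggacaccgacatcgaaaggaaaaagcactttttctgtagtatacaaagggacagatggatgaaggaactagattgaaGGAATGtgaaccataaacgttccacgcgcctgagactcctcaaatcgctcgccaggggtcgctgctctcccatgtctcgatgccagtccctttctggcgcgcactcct
Mcl1, chr3:95658471-95658720, plus strand: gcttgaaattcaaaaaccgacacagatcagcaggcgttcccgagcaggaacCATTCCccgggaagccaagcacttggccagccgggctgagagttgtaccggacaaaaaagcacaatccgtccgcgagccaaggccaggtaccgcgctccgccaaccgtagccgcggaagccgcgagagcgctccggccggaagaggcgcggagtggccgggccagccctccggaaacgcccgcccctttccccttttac
Bax, chr7:45466899-45467148, minus strand: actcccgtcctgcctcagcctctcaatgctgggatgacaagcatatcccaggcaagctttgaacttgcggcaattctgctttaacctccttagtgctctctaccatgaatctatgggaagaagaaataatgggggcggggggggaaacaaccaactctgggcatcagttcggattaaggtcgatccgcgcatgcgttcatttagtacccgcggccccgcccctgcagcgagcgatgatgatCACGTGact
Bbc3, chr7:16310011-16310260, plus strand: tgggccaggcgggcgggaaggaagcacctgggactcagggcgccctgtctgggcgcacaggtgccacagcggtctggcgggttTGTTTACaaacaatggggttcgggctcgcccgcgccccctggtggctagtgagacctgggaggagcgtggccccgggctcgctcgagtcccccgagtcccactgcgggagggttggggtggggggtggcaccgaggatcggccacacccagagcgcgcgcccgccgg

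The match began 108 bases before the start in Bcl2l1, 199 in Mcl1, 9 in Bax and 167 in Bbc3. On both strands, GGAATG was in 2 of the 15 windows (13.3%), against 12.6% of 32851 windows of all genes. TGTTTAC was in 2 windows, of Bbc3 and Bcl2l11, against 3.17% of all windows, and CACGTG in 2, of Bax and Bbc3, against 6.02%. The GC box GGGCGG was in 10 of the 15 windows (66.7%), against 32.7% of all. No member window held TGACGTCA (CRE) or TGATGNAA (C/EBP-ATF), which were in 1.55% and 3.45% of all windows. Of the 3 Bbc3 windows 2 overlap each other, so the windows are not independent. The FOXO and E-box matches of Bbc3 lie outside the shared bases, and a match is a description of letters only.

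Against control, Nf2-KO tumorspheres had less RNA of all 3 pro-survival genes and of Pmaip1, and more of Bax. Of the 10 members, 1 was higher and 4 were lower at an adjusted p under 0.05 (edgeR's quasi-likelihood test, Benjamini-Hochberg over all genes tested), where 20.6% of all genes were higher and 22.2% lower. Libraries labelled Rasa1-KO had 2 members higher, Bax and Bbc3, and 2 lower, Bcl2 and Bcl2l1, against 19.7% and 22.2% of all genes. Libraries labelled double-KO had none, against 4% higher and 2.46% lower of all genes, although Bcl2 and Mcl1 had a raw p under 0.05 and DESeq2 also called none. The shares called in the first 2 comparisons were near those of all genes in number, and no member reached a fold change of 3. By a rule of at least 3-fold with a raw p under 0.05, which called 11.4%, 9.27% and 2.03% of all genes in the 3 comparisons, no member was called. The median log2 fold change of the 10 was -0.32 in Nf2-KO, -0.10 in labelled Rasa1-KO and -0.08 in labelled double-KO, against -0.07, -0.08 and -0.04 over all genes. The 3 comparisons share the control libraries. Without the unnumbered control and labelled double-KO 1, 7 members were called in Nf2-KO, 6 in labelled Rasa1-KO and 1 in labelled double-KO, where 67%, 65.9% and 29.9% of all genes were called. Leaving out 1 library at a time gave 2 to 7, 0 to 5 and 0 to 2 members, while the share of all genes called ran from 32.1% to 61.6%, 30.7% to 60.5% and 2.68% to 30.1%.

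**Figure D2:**
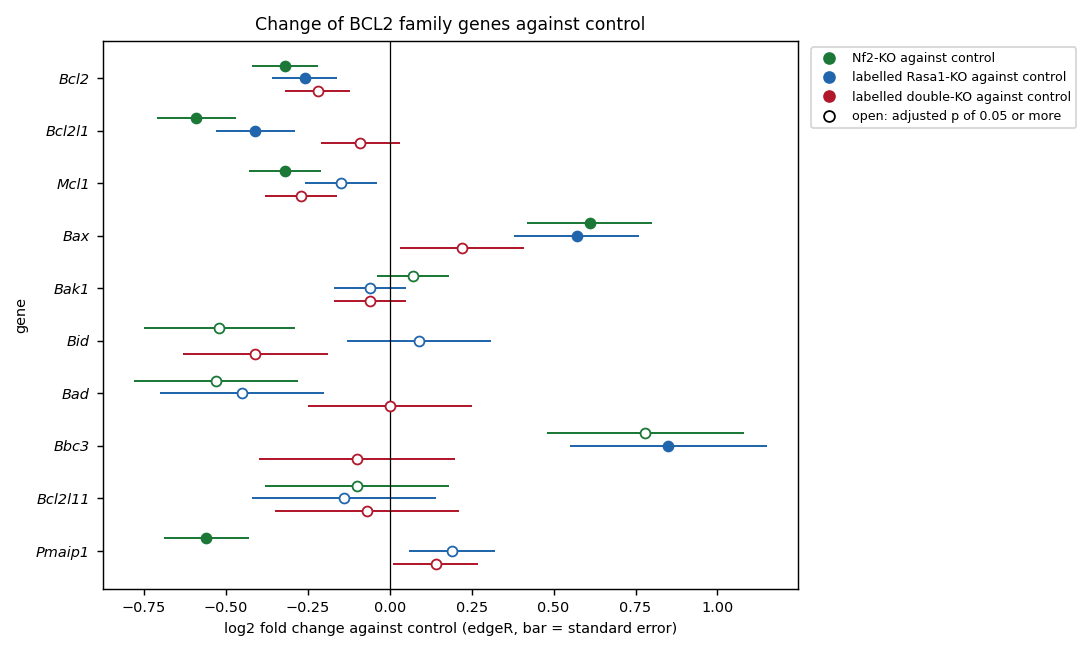
Log2 fold change of the 10 genes against control with its standard error (edgeR), in Nf2-KO, labelled Rasa1-KO and labelled double-KO libraries, with filled points at an adjusted p under 0.05. Bcl2, Bcl2l1 and Mcl1 lie below 0 in each comparison, and the open points of the labelled double-KO libraries show that none passed the test.

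Bcl2l1 (gene 12048, chr2:152758732-152833803, GRCm38.p6, overlapping Cox4i2) encodes BCL-XL, which keeps BAX in the cytosol. It was at 45.2, 58.3 and 58.8 CPM in the control libraries, 39.2, 34.8 and 33.9 in Nf2-KO, 36.5, 42.9 and 42.7 in labelled Rasa1-KO and 49.1, 54.8 and 48.3 in labelled double-KO. Every Nf2-KO and labelled Rasa1-KO library was below every control library, whereas the labelled double-KO libraries overlapped the controls. The log2 fold change was -0.59 ± 0.12 (SE, adjusted p = 0.0026) in Nf2-KO, the largest fall among the 10 genes. It was -0.41 ± 0.12 (adjusted p = 0.02) in labelled Rasa1-KO and -0.09 ± 0.12 (adjusted p = 0.72) in labelled double-KO. The call in Nf2-KO held whichever library was left out, while that in labelled Rasa1-KO was lost without control 1, control 2 or the unnumbered labelled Rasa1-KO library (adjusted p of 0.057 to 0.09). Bcl2l1 was higher in labelled double-KO than in Nf2-KO by 0.50 ± 0.12 (adjusted p = 0.0096). That call was lost on the log2 TPM scale (0.36, limma adjusted p = 0.19).

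Bcl2 (gene 12043, chr1:106538176-106714290) encodes the founding member, which lies in the mitochondrial and reticulum membranes. It was at 27.9, 28.3 and 30.2 CPM in control, 24.7, 22.7 and 21.8 in Nf2-KO, 22.7, 26.5 and 23 in labelled Rasa1-KO and 24.2, 24.8 and 25 in labelled double-KO. All 9 knockout libraries were below all control libraries, by small amounts. Its log2 fold change was -0.32 ± 0.10 in Nf2-KO (adjusted p = 0.019) and -0.26 ± 0.10 in labelled Rasa1-KO (adjusted p = 0.049). It had -0.22 ± 0.10 in labelled double-KO (adjusted p = 0.21). The Nf2-KO call was lost without Nf2-KO 2 or Nf2-KO 3 (adjusted p of 0.066 and 0.083). The labelled Rasa1-KO call was lost without any of 10 libraries (0.054 to 0.17) and held only without the unnumbered control or labelled Rasa1-KO 1.

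Mcl1 (gene 17210, chr3:95656944-95663179) was at 268, 256 and 255 CPM in control, 196, 220 and 207 in Nf2-KO, 235, 231 and 236 in labelled Rasa1-KO and 183, 238 and 226 in labelled double-KO. The knockout libraries were again all below the controls, with the widest spread in the labelled double-KO group. The log2 fold change was -0.32 ± 0.11 in Nf2-KO (adjusted p = 0.028), -0.15 ± 0.11 in labelled Rasa1-KO (adjusted p = 0.27) and -0.27 ± 0.11 in labelled double-KO (adjusted p = 0.17). The call in Nf2-KO was lost without control 1 (adjusted p = 0.053), Nf2-KO 1 (0.1), Nf2-KO 3 (0.08) or labelled double-KO 3 (0.051). On the log2 TPM scale labelled Rasa1-KO was lower by 0.62 (limma adjusted p = 0.019), a call that the counts did not give.

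**Figure D3:**
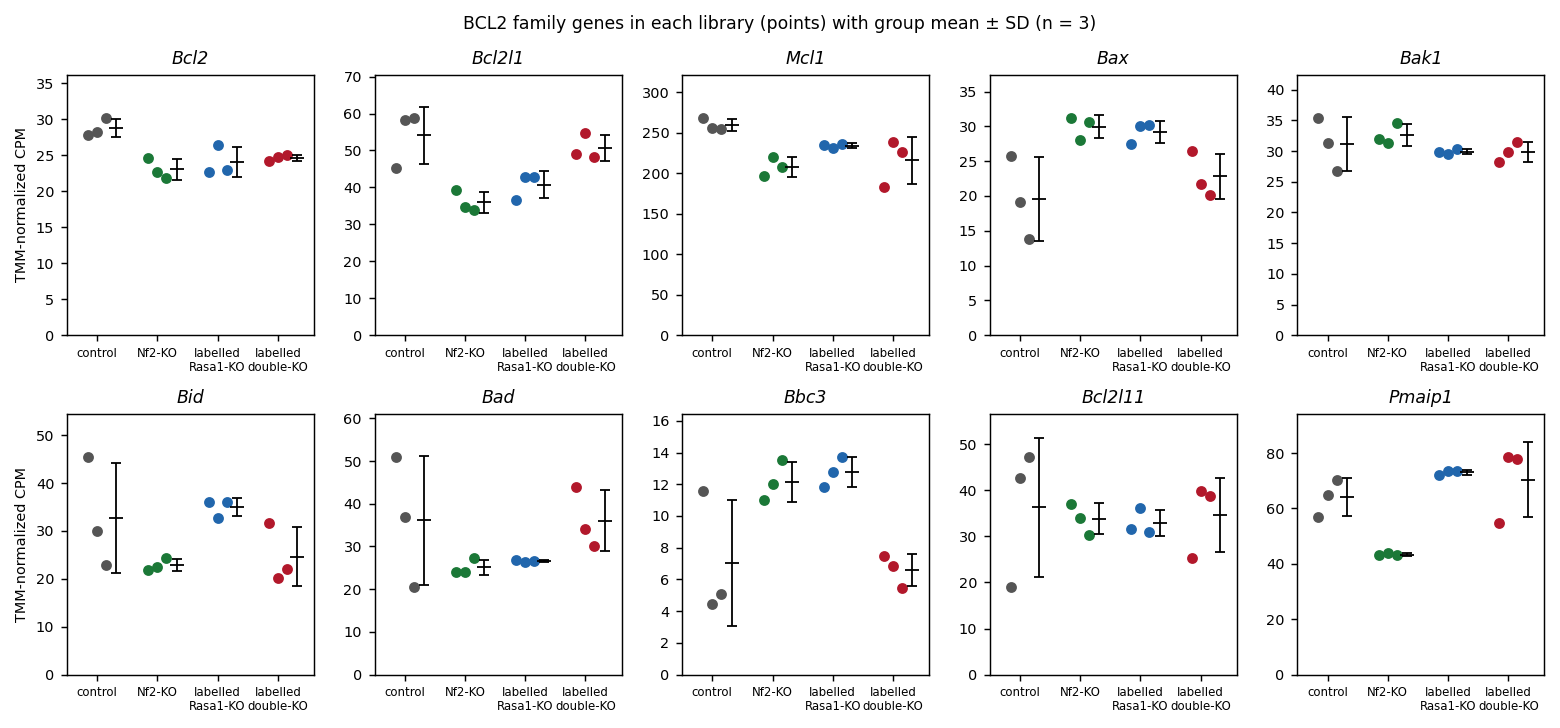
TMM-normalized CPM of each of the 10 genes in the 12 libraries (points) by group, with the group mean ± SD (n = 3) beside them. Bcl2, Bcl2l1 and Mcl1 have their highest mean in control, Bax and Bbc3 have higher means in Nf2-KO and labelled Rasa1-KO than in control, and the Pmaip1 points of Nf2-KO, at 43.1 to 43.8 CPM, lie below those of the other groups.

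Among the effectors, Bax changed and Bak1 passed the edgeR test in no comparison. Bax (gene 12028, chr7:45461695-45466903), a cytosolic protein that inserts in mitochondria on activation, was at 25.8, 19.2 and 13.8 CPM in control, 31.2, 28.1 and 30.6 in Nf2-KO, 27.4, 30 and 30.2 in labelled Rasa1-KO and 26.5, 21.7 and 20.2 in labelled double-KO. The Nf2-KO and labelled Rasa1-KO libraries lay above all controls, with the unnumbered control close below them, and the labelled double-KO libraries overlapped the controls. Bax rose by 0.61 ± 0.19 in Nf2-KO (adjusted p = 0.021) and by 0.57 ± 0.19 in labelled Rasa1-KO (adjusted p = 0.029). It had 0.22 ± 0.19 (adjusted p = 0.56) in labelled double-KO, a value that turned to -0.04 on the log2 TPM scale. The Nf2-KO call was lost without control 1, Nf2-KO 1 or Nf2-KO 3 (adjusted p of 0.059, 0.06 and 0.06). The labelled Rasa1-KO call was lost without control 1, control 2 or any library of that group (0.054 to 0.082), and on the log2 TPM scale (0.14, limma adjusted p = 0.23). Bax varied more among the controls in CPM than in TPM, where they were at 35.2, 33.9 and 29.9. The control with the most Bax in CPM also had the most counts, 95340850 against 69091487 and 43818139. Over the controls Mcl1, Bak1, Bid and Bad fell in CPM with the counts as Bax did. Bcl2, Bcl2l1, Bcl2l11 and Pmaip1 ran the other way, and Bbc3 followed neither order. The part of depth was not tested.

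Bak1 (gene 12018, chr17:27019812-27028627, overlapping Ggnbp1) encodes BAK, which sits in the mitochondrial membrane at all times. It was at 35.4, 31.3 and 26.7 CPM in control, 31.9, 31.4 and 34.6 in Nf2-KO, 29.9, 29.5 and 30.4 in labelled Rasa1-KO and 28.2, 29.9 and 31.5 in labelled double-KO. Each knockout group overlapped the controls. The log2 fold changes were 0.07, -0.06 and -0.06, each ± 0.11, and the 95% interval of the change in Nf2-KO ran from -0.18 to 0.32.

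Pmaip1 (gene 58801, chr18:66458604-66465558) encodes NOXA, which binds MCL1 and drives its degradation. It was at 56.8, 64.8 and 70.4 CPM in control, 43.1, 43.8 and 43.1 in Nf2-KO, 72, 73.7 and 73.5 in labelled Rasa1-KO and 54.9, 78.5 and 77.9 in labelled double-KO. The Nf2-KO libraries were below all others and nearly equal to each other, and the labelled Rasa1-KO libraries were above all controls. Pmaip1 fell by 0.56 ± 0.13 in Nf2-KO (adjusted p = 0.0055), and this call held whichever library was left out and in every alternative run other than the 3-fold rule. It had 0.19 ± 0.13 in labelled Rasa1-KO (adjusted p = 0.27) and 0.14 ± 0.13 in labelled double-KO (adjusted p = 0.60). Both values turned negative on the log2 TPM scale, to -0.27 and -0.17. Between knockouts, Pmaip1 was the only member called in labelled Rasa1-KO against Nf2-KO, higher by 0.75 ± 0.13 (adjusted p = 0.0099). In that comparison 1.92% of all genes were higher and 1.74% lower. The Pmaip1 call was lost without Nf2-KO 1, 2 or 3 (adjusted p of 0.056, 0.057 and 0.053) and on the log2 TPM scale. Labelled double-KO was above Nf2-KO by 0.70 ± 0.13 (adjusted p = 0.0019), which was also lost on the log2 TPM scale (limma adjusted p = 0.11).

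Bbc3 (gene 170770, chr7:16308398-16318334) encodes PUMA, which binds all pro-survival proteins. It was at 11.6, 4.42 and 5.1 CPM in control, 11, 12 and 13.5 in Nf2-KO, 11.8, 12.8 and 13.7 in labelled Rasa1-KO and 7.47, 6.85 and 5.47 in labelled double-KO. The unnumbered control was as high as the Nf2-KO libraries, and the other controls were below every knockout library. Bbc3 rose by 0.85 ± 0.30 in labelled Rasa1-KO (adjusted p = 0.039). It had 0.78 ± 0.30 in Nf2-KO (adjusted p = 0.053) and -0.10 ± 0.30 in labelled double-KO (adjusted p = 0.89). Without the unnumbered control alone, Nf2-KO was higher by 1.36 (adjusted p = 1.4e-05), and DESeq2 called it with all libraries (adjusted p = 0.029). The labelled Rasa1-KO call was lost without any of 10 libraries (0.052 to 0.12), the exceptions being the unnumbered control and labelled double-KO 1. Bbc3 was lower in labelled double-KO than in labelled Rasa1-KO by 0.95 ± 0.30 on the log2 scale (adjusted p = 0.032), the only member called there, where 16.3% of all genes were higher and 14% lower. Without any 1 library of these 2 groups that call was lost (0.052 to 0.12). It was lower in labelled double-KO than in Nf2-KO by 0.88 ± 0.30 (adjusted p = 0.041), a call lost without any 1 of 9 knockout libraries (0.058 to 0.14). In this last comparison 2 members were higher and 1 was lower, against 16.9% and 15.3% of all genes.

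Bid (gene 12122, chr6:120893119-120917062), which caspase-8 cleaves to link death receptors to mitochondria, was at 45.4, 30 and 22.9 CPM in control, 21.9, 22.4 and 24.4 in Nf2-KO, 36.1, 32.8 and 36 in labelled Rasa1-KO and 31.7, 20.2 and 22 in labelled double-KO. The controls were widely spread and overlapped every other group. The log2 fold change was -0.52 ± 0.23 in Nf2-KO (adjusted p = 0.082), 0.09 ± 0.22 in labelled Rasa1-KO (adjusted p = 0.76) and -0.41 ± 0.22 in labelled double-KO (adjusted p = 0.32). With the numbers in the table names as a replicate block, which paired controls and labelled double-KO libraries, Bid was called lower in labelled double-KO (-0.39, adjusted p = 0.049), the only member of 10, where 13.9% of all genes were called. On the log2 TPM scale Bid was lower in Nf2-KO by 0.63 (limma adjusted p = 0.0021) and in labelled double-KO by 0.65 (0.0092).

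Bad (gene 12015, chr19:6941861-6951905, overlapping Gpr137), which growth factor signalling holds inactive by phosphorylation, was at 50.9, 36.9 and 20.5 CPM in control, 24, 24.1 and 27.2 in Nf2-KO, 26.9, 26.3 and 26.5 in labelled Rasa1-KO and 44, 34.1 and 30.1 in labelled double-KO. Here too the controls overlapped every group. The log2 fold change was -0.53 ± 0.25 in Nf2-KO (adjusted p = 0.11), -0.45 ± 0.25 in labelled Rasa1-KO (adjusted p = 0.18) and 0.00 ± 0.25 in labelled double-KO. Without control 2 alone, Bad was called lower in Nf2-KO (-0.82, adjusted p = 0.0023) and in labelled Rasa1-KO (-0.73, adjusted p = 0.0049).

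Bcl2l11 (gene 12125, chr2:128126038-128162547, overlapping Acoxl) encodes BIM, a main trigger of death after loss of attachment or of growth factors. It was at 19.1, 42.6 and 47.2 CPM in control, 37.1, 34 and 30.4 in Nf2-KO, 31.7, 36.2 and 31 in labelled Rasa1-KO and 25.4, 39.8 and 38.7 in labelled double-KO. The unnumbered control and labelled double-KO 1 were the lowest libraries of all. The log2 fold changes were -0.10, -0.14 and -0.07, each ± 0.28, none with an adjusted p under 0.71. Without those 2 libraries it was called in Nf2-KO and in labelled Rasa1-KO, below the 2 remaining controls.

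Ratios within a library do not depend on its scaling, and TPM ratios of the pro-survival genes to Bax are given as a description. Bcl2l1 to Bax was at 0.534, 0.841 and 1.1 in control, 0.386, 0.356 and 0.341 in Nf2-KO, 0.392, 0.44 and 0.444 in labelled Rasa1-KO and 0.571, 0.739 and 0.697 in labelled double-KO. The Nf2-KO and labelled Rasa1-KO libraries lay below all controls, and the labelled double-KO libraries lay within the control range. Bcl2 to Bax averaged 0.2 ± 0.0692 in control (± SD over 3 libraries), 0.0962 ± 0.00691 in Nf2-KO, 0.103 ± 0.00803 in labelled Rasa1-KO and 0.138 ± 0.0224 in labelled double-KO. Mcl1 to Bax averaged 3.51 ± 1.02 in control, 1.73 ± 0.194 in Nf2-KO, 2 ± 0.117 in labelled Rasa1-KO and 2.41 ± 0.604 in labelled double-KO. On the log2 scale the mean Bcl2l1 to Bax ratio differed from control by -1.13 in Nf2-KO, -0.90 in labelled Rasa1-KO and -0.25 in labelled double-KO. Mcl1 to Pmaip1, the ratio of NOXA's partner to NOXA, was at 3.46 to 3.82 in Nf2-KO, 2.38 to 2.49 in labelled Rasa1-KO, 2.21 to 2.53 in labelled double-KO and 2.76 to 3.6 in control. Every labelled Rasa1-KO and labelled double-KO library was thus below every control library. By edgeR neither gene was called in these groups against control.

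**Figure D4:**
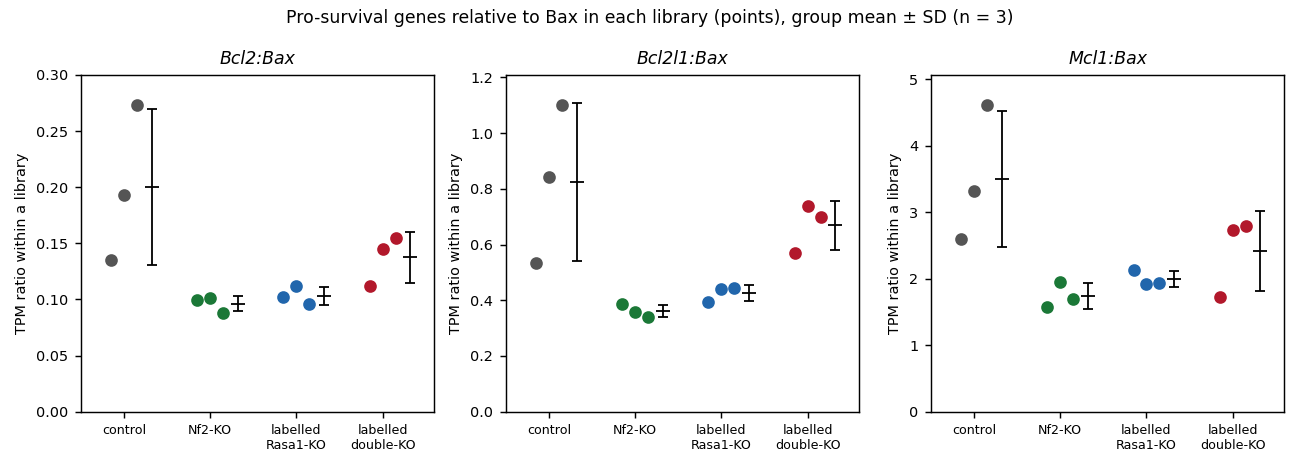
TPM ratios of Bcl2, Bcl2l1 and Mcl1 to Bax within each library (points) by group, with group mean ± SD (n = 3). The 3 Nf2-KO and 3 labelled Rasa1-KO libraries lie below the controls in each panel, with Bcl2l1 to Bax at 0.341 to 0.444 against 0.534 to 1.1.

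Summed over each class, the mean of the pro-survival genes (± SD over 3 libraries) was 147 ± 32.1 TPM in control, 99.5 ± 9.43 in Nf2-KO, 92.1 ± 4.41 in labelled Rasa1-KO and 103 ± 22.3 in labelled double-KO. The 5 BH3-only genes had 127 ± 3.75, 86 ± 3.7, 91.7 ± 3.5 and 102 ± 10.3 TPM in the same order. The effectors had 56.3 ± 1.49, 66.9 ± 3.37, 52.7 ± 3.18 and 50.4 ± 4.5 TPM. These sums are a description, since TPM was not the scale for comparing groups, and falls in them need not appear in the counts. By edgeR on counts, the median log2 fold change of the BH3-only genes was -0.52 in Nf2-KO, 0.09 in labelled Rasa1-KO and -0.07 in labelled double-KO. That of the effectors was 0.34, 0.26 and 0.08. The pro-survival share of the summed TPM of the 10 genes was 39% to 49.6% in control, 38.3% to 41% in Nf2-KO, 38.8% to 39% in labelled Rasa1-KO and 35.7% to 42.4% in labelled double-KO. The labelled double-KO and Nf2-KO ranges overlapped the control range, and the labelled Rasa1-KO range met its lower end.

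Whether the combined loss of Nf2 and Rasa1 added up was asked by the departure of the double knockout from the sum of the single effects on the log2 scale. With the labels as they stand, 6 of 10 members departed from the sum, where 52.4% of all genes did. Bcl2l1 (0.91 ± 0.17, adjusted p = 0.0011), Bad (0.97 ± 0.36, 0.04), Pmaip1 (0.51 ± 0.19, 0.039) and Bcl2 (0.35 ± 0.14, 0.046) were above it. Bbc3 (-1.73 ± 0.42, 0.0049) and Bax (-0.97 ± 0.27, 0.0096) were below it. With the 2 labels exchanged, as the table names and the Nf2 levels have them, none departed at an adjusted p under 0.05, where 6.41% of all genes did, and 3 had a raw p under 0.05, Mcl1 (0.44 ± 0.15, adjusted p = 0.11), Bid (1.03 ± 0.32, 0.085) and Pmaip1 (0.62 ± 0.19, 0.08). DESeq2 called these 3. The interval of the exchanged departure of Bcl2l1 ran from -0.13 to 0.68 and that of Bax from -0.86 to 0.36. Labels as they stand, the departures of Bcl2l1, Bax and Bbc3 held whichever library was left out, whereas those of Bcl2, Bad and Pmaip1 were each lost without any of 8, 10 and 10 of the 12 libraries.

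The order of the groups differed by member. For Bcl2, Bcl2l1 and Mcl1 the mean CPM was lowest in Nf2-KO and highest in control, and no neighbours in that order had an adjusted p under 0.05. For Bax the order was reversed, with control lowest and Nf2-KO highest, and again no neighbours passed the test. For Pmaip1, Nf2-KO was below control, its nearest neighbour (adjusted p = 0.0055), and no neighbours among the other 3 groups passed the test. Over the 12 libraries, Bax and Bbc3 had a Pearson r of 0.88 in log2 CPM, Bcl2l1 and Bbc3 of -0.86, Bcl2l1 and Bax of -0.81 and Bcl2 and Bcl2l1 of 0.78. These correlations rest on libraries of 4 groups that share a scaling and are a description.

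Among all 18052 other genes tested, those most like Bcl2l1 in log2 CPM over the 12 libraries were Osgin1 and Furin (r = 0.974 each) and Rab11b (0.967). Those most like Bax were Cst3 (0.99), LOC115488794 (0.989) and Tor1a (0.988). Those most like Pmaip1 were Ifit3 (0.981), Ube2q2 (0.961) and Dio3os (0.959), and most like Mcl1 were COX1 (0.949), Rsad1 (0.93) and Stx3 (0.925). Plekha5 (0.927), Adck2 (0.923) and Gm3134 (0.916) were closest to Bcl2, and Gm21312 (0.984), Gm6763 (0.982) and Gm8764 (0.981) to Bbc3.

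Of 18 other genes of the BCL2 family and BNIP genes listed, 13 were in the tables, and Bcl2a1a to Bcl2a1d and Bcl2l10 were not analysed. Nf2-KO had 4 higher and 4 lower, labelled Rasa1-KO 4 higher and 2 lower, and labelled double-KO 2 higher. Over all genes the shares higher and lower were 20.6% and 22.2%, 19.7% and 22.2%, and 4% and 2.46%. The list's median log2 fold changes were -0.22, -0.31 and 0.01, against -0.07, -0.08 and -0.04 over all genes. Bnip3, a BH3-like protein induced by hypoxia that marks mitochondria for removal, was at 208, 91 and 98.3 CPM in control, 605, 677 and 670 in Nf2-KO, 599, 498 and 531 in labelled Rasa1-KO and 263, 279 and 285 in labelled double-KO. It was above the controls in all 9 knockout libraries, by 2.30 ± 0.26 (adjusted p = 3.3e-05), 2.04 ± 0.26 (1e-04) and 1.06 ± 0.25 (0.029). Its relative Bnip3l rose by 0.89 in Nf2-KO, 0.99 in labelled Rasa1-KO and 0.56 in labelled double-KO (adjusted p = 5.5e-05, 3.5e-05 and 0.011). Bmf, a BH3-only protein released from the cytoskeleton on loss of attachment, was at 217, 139 and 119 CPM in control, 51.1, 51.8 and 53.4 in Nf2-KO, 58, 56.5 and 56.9 in labelled Rasa1-KO and 140, 103 and 104 in labelled double-KO. It fell by 1.60 ± 0.20 in Nf2-KO (adjusted p = 5.7e-05) and by 1.47 ± 0.20 in labelled Rasa1-KO (0.00014), and had -0.46 ± 0.19 in labelled double-KO (0.20). Bcl2l14 and Bik also fell in Nf2-KO (-2.14 and -1.46), at no more than 1.33 CPM in any library.

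**Figure D5:**
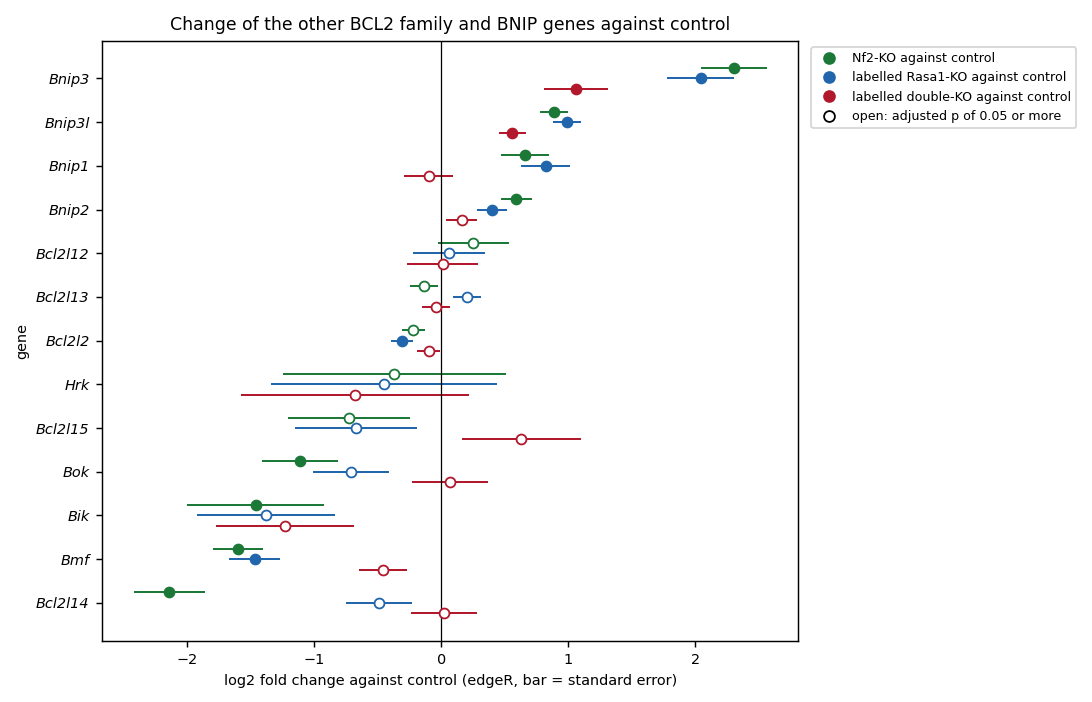
Log2 fold change against control with its standard error (edgeR) of the 13 other BCL2 family and BNIP genes in the tables, ordered by the change in Nf2-KO, with filled points at an adjusted p under 0.05. Bnip3 lies farthest to the right in each comparison, up to 2.30 in Nf2-KO, and Bmf and Bcl2l14 lie farthest to the left in Nf2-KO.

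Around the family, lists of related genes were counted against the same background, in which 42.8% of all genes were called in Nf2-KO, 41.9% in labelled Rasa1-KO and 6.46% in labelled double-KO, and nothing particular to a list is read from its count. The 16 regulators of its members that were listed had 4 higher and 3 lower in Nf2-KO, 5 higher and 3 lower in labelled Rasa1-KO and 2 higher in labelled double-KO, so that 7, 8 and 2 of 16 were called, with medians of -0.10, -0.17 and -0.04. Ddit3 (CHOP), a stress factor known to act on Bbc3 and Bcl2l11, rose by 2.49 ± 0.39 in Nf2-KO (adjusted p = 0.00039) and by 2.52 ± 0.40 in labelled Rasa1-KO (0.00043). It had 0.34 ± 0.38 in labelled double-KO (0.66). Its upstream factor Atf4 rose by 1.39 and 1.33 in the first 2 groups, and Trib3, a target of both, by 2.97, 2.42 and 0.73 in the 3 groups. Of 19 apoptosome and caspase genes, 4 were higher and 4 lower in Nf2-KO, 3 and 5 in labelled Rasa1-KO, and 1 was higher in labelled double-KO, that is 8, 8 and 1 of 19, with medians of -0.07, -0.14 and -0.08. Birc3, an inhibitor of cell death, fell by 1.99 and 1.75 on the log2 scale in Nf2-KO and labelled Rasa1-KO, and Birc5 (survivin) rose by 1.2, 0.75 and 0.75 in the 3 groups. Of 8 death receptor genes measured, 4 were lower in both Nf2-KO and labelled Rasa1-KO and none higher, with Tnfsf10 (TRAIL) at -4.35 and -3.76 and Fas at -1.34 and -2.18, where 22.2% of all genes were lower in each comparison. Tnfsf10 was at no more than 3.33 CPM in any library. The medians of this list were -0.33 and -0.35. None of the 8 was called in labelled double-KO by edgeR, where 1 had a raw p under 0.05. Of 16 p53 targets measured, Trp53 itself included, 4 were higher and 7 lower in Nf2-KO, 4 and 4 in labelled Rasa1-KO, and 1 was lower in labelled double-KO, that is 11, 8 and 1 of 16, with medians of -0.15, -0.06 and -0.08. Zmat3 fell by 2.05 and 1.97 in the first 2 groups, and Trp53, which the line carries in altered form, was at 1.37 to 7.81 TPM. All 6 proliferation genes were higher in Nf2-KO, 4 in labelled Rasa1-KO and 3 in labelled double-KO, with Ccnb1 at 1.58, 1.12 and 0.65, where 20.6%, 19.7% and 4% of all genes were higher. The medians of this list were 1.18, 0.82 and 0.48. In bulk RNA a change in the make-up of the cells and a change per cell cannot be told apart.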

How the data were processed

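Per the submitters' processing notes and the study's methods, Trimmomatic 0.38 was used for trimming, HISAT2 2.1.0 for alignment (mm10) and StringTie 2.1.3b for quantification of RefSeq genes. The authors deposited raw counts per gene for each library. They also deposited FPKM, scaled by length and mapped reads, and TPM. Whether counting used strand is not given in the sources used here. Libraries came from total RNA after removal of ribosomal RNA. Every count was above 0 in every library.

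Counts were fitted in R 4.3.3 with edgeR 4.0.16 over all 4 groups (filterByExpr, TMM, quasi-likelihood test), with Benjamini-Hochberg adjustment over 18053 genes and a threshold of 0.05. The fit was tested on simulated data. Intervals are 95% with 8 degrees of freedom. CPM are TMM-scaled, and log2 CPM had a prior count of 2. TPM compared genes and formed ratios within a library. TPM was not the scale for groups, since the summed FPKM that it divides by ran from 535095 to 832529 between libraries. Alternatives were RLE, DESeq2 1.42.0 (the authors used DESeq2), no filter, limma 3.58.1 on log2 TPM and FPKM, replicate blocks and libraries left out. With 3 against 3, an exact permutation test of 1 gene cannot give a p under 0.1, so none is given. By the numbers in the table names, deviations from the group means correlated in the 3 pairs of control and labelled double-KO libraries (0.626, 0.313 and 0.444), but not in all pairs by the title numbers. Replicate libraries differed by more than sampling noise in every pair.

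The lists cover other BCL2 family genes, apoptosome and caspases, death receptors, p53 targets, regulators of members, proliferation and markers of 4 cell types. From each list other than the markers, at most 4 genes per comparison with control were eligible to be named, those with an adjusted p under 0.05, a mean count of at least 10 in a group and the largest change; genes of the alike lists had the highest r. A gene eligible in 1 comparison may be given in the others too. 1 gene that this rule names is not reported here. The members and lists were chosen with earlier results of these data known. Positions are from RefSeq on GRCm38.p6, the assembly of mm10. Figures were drawn with matplotlib 3.10.9.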

Additional observations from a re-analysis of the deposited data

Results flagged for a closer look

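With the labels as they stand, which the Nf2 levels go against, 6 of the 10 members departed from additivity by the interaction in edgeR. This is near the share of all genes that departed, 52.4%. The departures from additivity on the log2 scale were 0.35 for Bcl2, 0.91 for Bcl2l1, -0.97 for Bax, 0.97 for Bad, -1.73 for Bbc3 and 0.51 for Pmaip1. With the labels Rasa1-KO and double-KO exchanged none of the 6 departed at an adjusted p under 0.05, and of these only Pmaip1 had a raw p under it. Nf2 was at control level in the libraries labelled double-KO and low in those labelled Rasa1-KO. Dixon's test for a single outlying value was not applied, since it needs more than 3 libraries in a group. By the distance between replicate libraries, the unnumbered control and labelled double-KO 1 stood apart from their groups.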

How the results depend on the processing

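Against control, the number of members called was 5 in Nf2-KO, 4 in labelled Rasa1-KO and 0 in labelled double-KO. Fitting only the groups compared gave 2 and 0 in the first 2, and 5, 3 and 5 between labelled double-KO and labelled Rasa1-KO (1 in the fit over all groups), labelled Rasa1-KO and Nf2-KO (1), and labelled double-KO and Nf2-KO (3). A fold of at least 3 with a raw p under 0.05 gave 0 in all 6 comparisons. In labelled double-KO against control, log2 TPM with either pseudocount gave 1 (Bid) and log2 FPKM 1 (Mcl1). Between labelled double-KO and labelled Rasa1-KO, DESeq2 gave 2 and log2 TPM with either pseudocount 2, and between labelled Rasa1-KO and Nf2-KO log2 TPM gave 0. For the departure from additivity with labels exchanged, DESeq2 gave 3 in place of 0, and log2 TPM with either pseudocount and log2 FPKM 1 each (Bid). Without the unnumbered control and labelled double-KO 1, the 3 comparisons and the departure with labels exchanged gave 1, 4, 2 and 3 (labelled double-KO against control and labelled Rasa1-KO, labelled Rasa1-KO against Nf2-KO, exchanged). The shares of all genes called under these settings are not given here, and nothing particular to the members is read from the counts. The cause of the differences was not tested.

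With the replicate block by table names, which paired control and labelled double-KO, 1 member was called in labelled double-KO against control, 4 against labelled Rasa1-KO, 2 in labelled Rasa1-KO against Nf2-KO and 2 in the exchanged departure. With the block by title numbers, which share only a number, labelled double-KO against labelled Rasa1-KO had 0.  The other blocked counts were within 1.5 times of those without the block. Nothing particular to the members is read from the blocked counts either.

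Leaving out each library in turn gave 2 to 7 members in Nf2-KO, 0 to 5 in labelled Rasa1-KO and 0 to 2 in labelled double-KO against control, where 32.1% to 61.6%, 30.7% to 60.5% and 2.68% to 30.1% of all genes were called. It gave 0 to 4 in labelled double-KO against labelled Rasa1-KO, 0 to 2 in labelled Rasa1-KO against Nf2-KO and 2 to 5 in labelled double-KO against Nf2-KO, against 19.6% to 46.4%, 1.15% to 12.2% and 22.6% to 47.5% of all genes. For the departure it gave 3 to 5 with labels as they stand and 0 to 2 exchanged, against 45.3% to 65.4% and 3.45% to 20.7%. On the log2 TPM scale with pseudocounts of 1 and 0.1, 3 values that had not passed the test turned sign. Pmaip1 had -0.27 and -0.28 in labelled Rasa1-KO and -0.17 and -0.17 in labelled double-KO, and Bax -0.04 and -0.04 in labelled double-KO. All 72 alternative values of the log2 ratios to Bax moved by less than 1 SD between libraries, and the Bcl2l1 ratio in labelled double-KO ran from -0.53 to -0.01. Every member had a count of 257 or more in every library, and the part of depth in the spread between libraries was not tested.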

Other observations

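Foxo3, a FOXO factor, was at 110, 112 and 111 CPM in control, 208, 204 and 191 in Nf2-KO, 171, 180 and 171 in labelled Rasa1-KO and 159, 144 and 144 in labelled double-KO. Its log2 fold changes were 0.86, 0.65 and 0.43, each ± 0.08 (SE), with adjusted p-values of 8.8e-06, 9.5e-05 and 0.01 in edgeR, and every knockout library was above every control. Huwe1, a ubiquitin ligase of MCL1, was at 210, 495 and 539 CPM in control and 198, 248 and 176 in labelled Rasa1-KO. It was lower there by 1.00 ± 0.29 on the log2 scale (adjusted p = 0.017), although the unnumbered control was at the level of that group. Perp, a p53 target in epithelia, was at 54.7, 38.2 and 44.5 CPM in control, 20.1, 20.3 and 18.1 in Nf2-KO and 25.8, 33 and 33.7 in labelled double-KO. It fell by 1.23 ± 0.14 and 0.57 ± 0.14 on the log2 scale (adjusted p = 3.8e-05 and 0.035), and had -0.18 ± 0.14 in labelled Rasa1-KO (0.32).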
